A study of Mus musculus with 2 samples.

Results

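Tfap2c, Gata3 and Plac1 are genes linked to the trophoblast, the outer lineage of the early embryo that builds the placenta, and their transcript signals were followed from mouse ES cells at day 0 to EB cells at day 4. The probes were those whose target identifier holds the zero-padded NCBI Gene number of 1 of the 3 genes. This gave 4 of 46643 probes on the array, 2 for Tfap2c, 1 for Gata3 and 1 for Plac1. They belong to the 9796 probes, of 8102 genes, that could be named in this way. The series holds 2 samples of total RNA, 1 per group. The labels name the groups Mouse ES cells and Mouse EB Cells with their days, and give no strain, cell line, genotype, culture medium or agent. ES is the common short form of embryonic stem cells and EB that of embryoid bodies, aggregates in which such cells begin to differentiate, although the labels do not spell them out. Both RNAs were hybridised at different positions of 1 bead chip, per the file headers.

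Tfap2c encodes AP-2 gamma, a transcription factor that binds DNA as a dimer. It is needed for the trophoblast lineage and for primordial germ cells, and is also made by ES cells. Gata3 encodes a zinc finger transcription factor of the GATA family, which acts in trophectoderm and later in T lymphocytes, kidney and inner ear. Plac1 is an X-linked gene expressed mainly in placental trophoblast, and its protein carries a signal peptide and is needed for normal placental growth. A bulk sample mixes all cells of a culture, so more or fewer cells that express a gene and more or less RNA per cell cannot be told apart in any value below.

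The members differed in direction. Tfap2c was lower in EB by both of its probes, Gata3 was 2.68-fold higher, and Plac1 was at least 2.36-fold higher. Values are signals after quantile normalization, which gives both arrays 1 common distribution, and differences are log2 of EB over ES. A signal counted as measured above the floor at 230.0 units or more, the level at which the deposited detection score of the EB array passed 0.99. A gene was called higher or lower at a log2 difference of at least 1, that is 2-fold. By this size rule 2 members were called higher and 1 lower. Of all 3867 named genes above the floor in at least 1 array, 144 (3.72%) were called higher and 207 (5.35%) lower. With 1 sample per group there was no test. The errors given are bead-level standard errors, which cover the measurement on 1 array and leave out biological variation. The 3 genes were picked with these differences already known, so their place among all genes is a description.

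**Figure D1:**
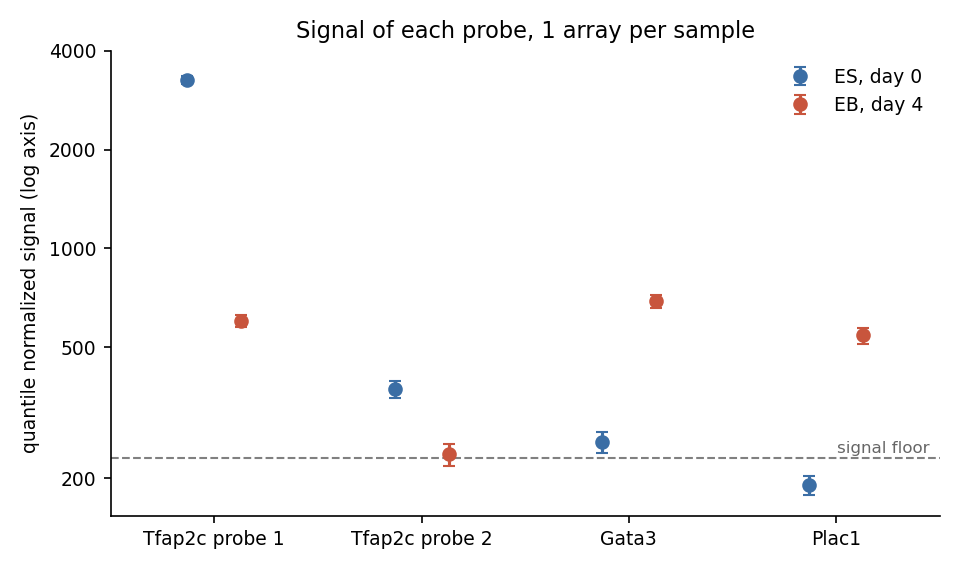
Quantile normalized signal (log axis) of the 4 probes in ES at day 0 and EB at day 4, with bars of 1 bead-level standard error and a dashed line at the floor of 230.0. Both Tfap2c probes are higher in ES, while Gata3 and Plac1 are higher in EB, and the ES signal of Plac1 lies under the floor.

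Tfap2c was measured by a bright probe and a dim one. The bright probe (identifier scl0021420.2_250-S) read 3265 in ES and 602 in EB, from 30 and 29 beads. Its bead-level error was 2.71% of the signal in ES and 4.15% in EB. The log2 difference was -2.44 ± 0.07 (bead-level standard error), a 5.42-fold lower signal in EB. In EB the transcript was still measured, at 2.62 times the floor and with a detection score of 1. Among the 3867 named genes above the floor this was the 21st lowest difference.

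The dim Tfap2c probe (scl0021420.2_56-S) pointed the same way with a smaller difference. Its signal was 372 in ES and 236 in EB, with bead-level errors of 6.18% and 7.68% from 27 and 29 beads. The log2 difference was -0.66 ± 0.14, which did not reach the size rule. The EB signal was 1.03 times the floor, closer to it than the bead-level error. In ES this probe had 0.70 log2 units above the floor, whereas the bright probe had 3.83. Its difference thus came close to the largest that the floor lets it show.

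The gap between the differences of the Tfap2c probes was wide for this array. The dim probe had only 0.70 log2 units above the floor in ES, too few to show a fall like that of the bright one. Whether the probes disagree therefore cannot be told from this gap. Probe sequences were not used here, so which part of the transcript each probe targets is not known, and whether the probes read the same transcript forms was not tested. The bead-level 95% intervals ran from -2.58 to -2.30 for the bright probe and from -0.93 to -0.38 for the dim one, and did not overlap. The gap between their differences was 1.78 ± 0.16. Over 447 named genes with 2 probes above the floor, the median gap was 0.19 and the 95th percentile 0.81. The gap of Tfap2c was the widest of the 447 in these values, without normalization between arrays and after normexp background correction, while with signals set to the floor 2 other genes had a gap at least as wide. In the deposited series value table, where dim signals are stretched downward, the gap was 1.08 and 58 other genes had one at least as wide. In that table the dim probe gave -1.80 and passed the size rule. The mean over both probes in the quantile normalized values, -1.55, also passed it. Both probes were lower in EB under every scaling run.

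Gata3 was represented by 1 probe (scl014462.3_30-S). Its signal was 258 in ES and 691 in EB, from 27 and 20 beads, with bead-level errors of 7.41% and 4.47%. In ES it lay at 1.12 times the floor and in EB at 3.0 times. The gene was thus barely above background at day 0 and clearly measured at day 4. The log2 difference was 1.42 ± 0.12, with a bead-level 95% interval from 1.18 to 1.67. It ranked 65th from the highest of the 3867 genes. After normexp background correction the difference was 1.68, against 2.76 in the series value table.

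Plac1 was also represented by 1 probe (scl056096.1_158-S). Its signal was 190.4 in ES and 544 in EB, from 34 and 29 beads, with bead-level errors of 6.59% and 5.60%. The ES signal was 0.83 times the floor, so Plac1 was not measured above background at day 0, and the fold is a lower bound. The measured log2 difference was 1.51 ± 0.12, with a bead-level 95% interval from 1.27 to 1.76, and with the ES signal set to the floor it was 1.24. By its measured difference Plac1 ranked 53rd from the highest. The value depended on the treatment of dim signals more than that of Gata3: it was 1.90 after normexp and 3.98 in the series value table. Plac1 starts under the floor, and with signals set to the floor the order of the pair turned, with 1.24 for Plac1 against 1.42 for Gata3.

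**Figure D2:**
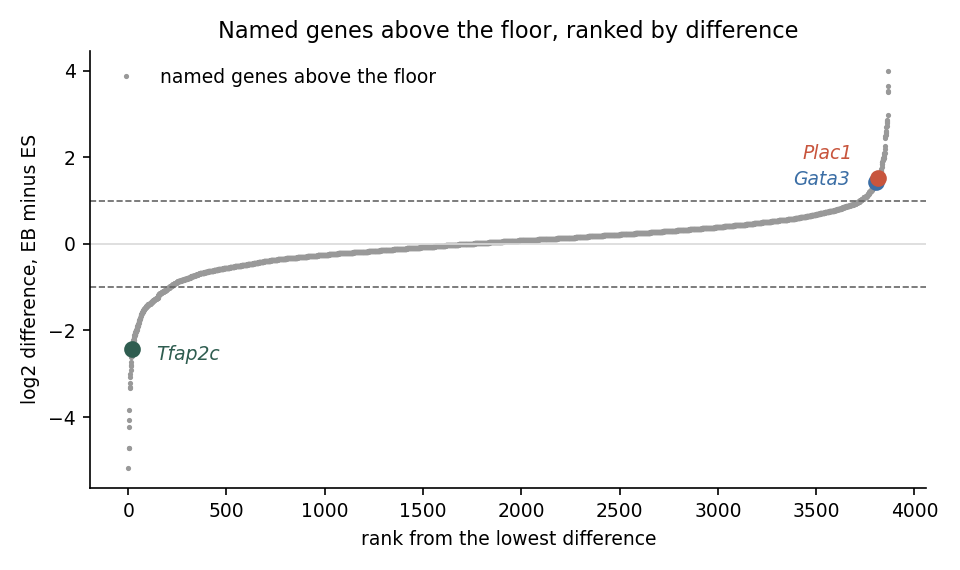
Log2 difference, EB minus ES, of the 3867 named genes above the floor in at least 1 array, ordered from the lowest, with dashed lines at the size rule of 1. Tfap2c (bright probe) is 21st from the lowest, and Gata3 and Plac1 are 65th and 53rd from the highest.

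**Figure D3:**
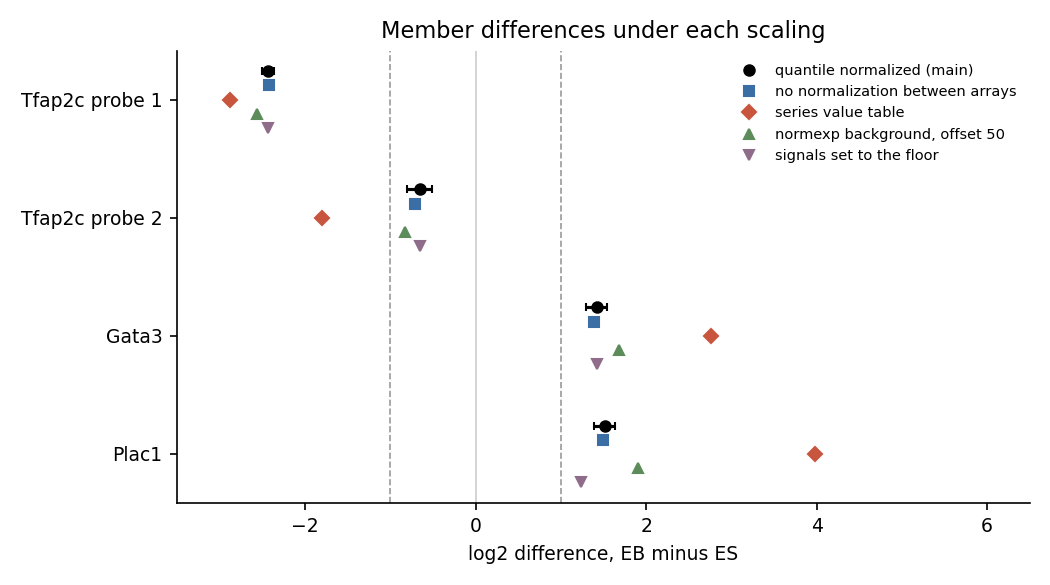
Log2 difference, EB minus ES, of each member probe under 5 scalings, with the bead-level standard error on the quantile normalized value and dashed lines at the size rule. No probe changes sign, and the series value table gives the widest spread for Plac1, at 3.98 against 1.51.

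Gata3 and Plac1 were both higher in EB, and the bases upstream of their start sites show how unlike the sequences around those starts are. RefSeq (GRCm38.p6) gave 1 promoter window for Gata3 and 2 for Plac1. No window for Tfap2c was available, so its upstream sequence was not examined. Each sequence below holds the 250 bases before the annotated start, 5′ to 3′ on the gene's strand, all on the minus strand. Capitals mark matches, on either strand, to 4 motifs: the AP-2 motif GCCNNNGGC, the GATA motif (AGATAA, or the same letters with T first, G last or both), the GC box GGGCGG and the TATA motif (TATAAA, or TATATA in its place).
Gata3, chr2:9878601-9878850: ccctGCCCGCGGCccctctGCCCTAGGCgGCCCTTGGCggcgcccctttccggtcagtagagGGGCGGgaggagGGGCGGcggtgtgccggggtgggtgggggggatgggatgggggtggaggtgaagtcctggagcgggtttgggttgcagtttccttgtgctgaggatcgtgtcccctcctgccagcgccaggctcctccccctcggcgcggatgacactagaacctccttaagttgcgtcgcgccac
Plac1 downstream start, chrX:53114406-53114655: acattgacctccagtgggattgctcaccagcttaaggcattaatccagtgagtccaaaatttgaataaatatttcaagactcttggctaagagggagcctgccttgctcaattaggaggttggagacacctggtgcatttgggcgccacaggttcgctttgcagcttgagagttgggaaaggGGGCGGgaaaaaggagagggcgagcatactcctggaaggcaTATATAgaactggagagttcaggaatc
Plac1 upstream start, chrX:53240111-53240360: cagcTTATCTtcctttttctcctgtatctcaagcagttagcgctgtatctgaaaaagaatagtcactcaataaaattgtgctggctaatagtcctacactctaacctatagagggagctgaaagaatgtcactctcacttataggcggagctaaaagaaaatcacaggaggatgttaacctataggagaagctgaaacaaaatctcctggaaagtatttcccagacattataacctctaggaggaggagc

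The Gata3 window was GC-rich (70.0% G or C, with 19 CpG sites), against a median of 52.4% and 6 CpG sites over 32851 windows of the same length. The Plac1 windows had 48.8% and 40.4%, with 4 and 2 CpG sites. The Gata3 window held 3 matches to the AP-2 motif, starting at positions -246, -231 and -221 from the start site, and 2 GC boxes. At least 1 AP-2 match occurred in 13.7% of all windows and 3 or more in 0.289%. These shares cover windows of every GC content. The fixed letters of the AP-2 motif are all G or C, and 90.8% of windows had a lower GC content than that of Gata3. How often 3 matches occur in windows of like GC content was not tested. Neither Plac1 window held an AP-2 match. The window of the downstream start held 1 GC box and a TATA motif at position -27, and that of the upstream start held 1 GATA match. A GATA match occurred in 26.5% of all windows, a GC box in 32.7% and a TATA motif in 15.6%. These matches are letters in a window and say nothing about whether a factor binds there. The AP-2 motif is palindromic and overlaps no other match here.

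The wider trophoblast and placenta list did not move one way. Of its 48 genes 18 were named on the array and 13 were above the floor in at least 1 sample. Of these, 3 were higher (Eomes, Gata3 and Plac1), 2 lower (Tfap2c and Krt19) and 8 did not pass the size rule, with a median difference of -0.06. All 3867 genes had a median of 0.06, with 3.72% higher and 5.35% lower. The 3 members were picked with their differences known, and Plac1 counted through EB alone. Without the members, 1 of 10 was higher and 1 lower, with a median of -0.11. Eomes, a T-box factor of trophoblast stem cells and also of the primitive streak, went from 259 in ES to 1828 in EB. Krt19, a keratin of simple epithelia, had signals of 1116 and 320.

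Among the members of this list under the size rule, Krt8 and Krt18, the keratin pair of trophectoderm that ES cultures also make, gave 0.05 and -0.38. Tead4, a factor at the top of the trophectoderm programme, gave -0.06 with signals of 287 and 276, and Ets2 gave 0.49. Fgfr2, the receptor through which FGF4 maintains trophoblast stem cells, gave 0.82 from a signal under the floor in ES to 329.8 in EB, and Cdh3, which encodes P-cadherin, gave -0.79. Both calls changed with the scaling. Fgfr2 was called higher after normexp and in the series value table (2.79), and Cdh3 was called lower in that table (-2.08), as was Tfap2a. The second probe of Krt8 was under the floor in both arrays. The placental hormone genes Prl2c2 and Prl3d1, with Ascl2, Lifr and Ceacam1, were under the floor in both arrays.

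**Figure D4:**
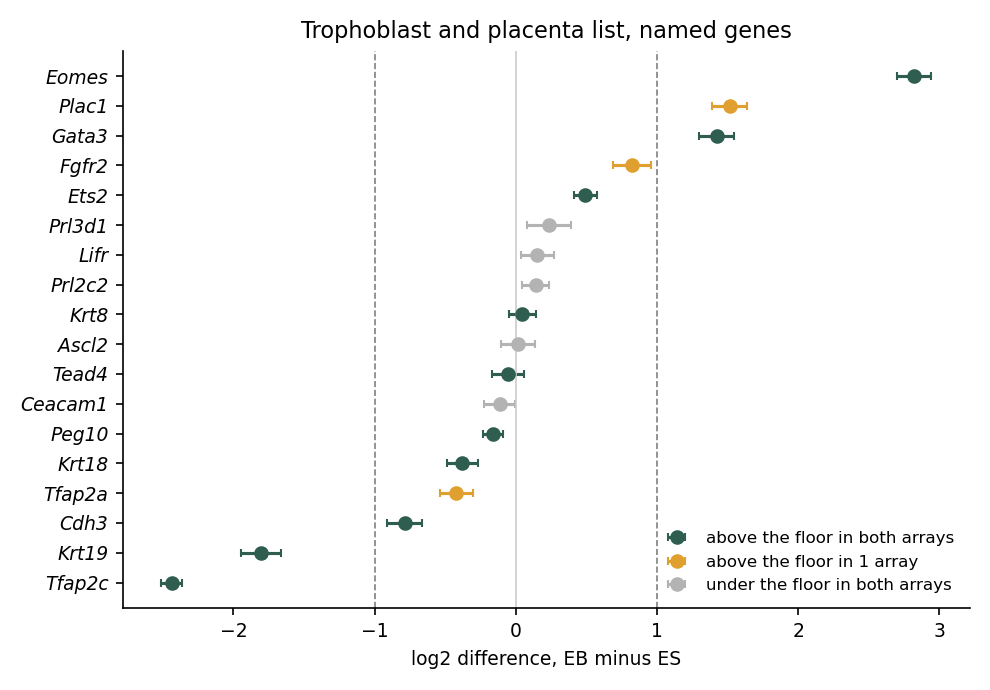
Log2 difference, EB minus ES, of the 18 named genes of the trophoblast and placenta list, with bars of 1 bead-level standard error, coloured by whether the signal lay above the floor in both arrays, in 1 or in neither. Gata3, Plac1 and Eomes lie past 1 on the higher side and Tfap2c and Krt19 on the lower, with the others between.

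Trophoblast was also read from a shorter marker list of that cell type which leaves out the 3 members. Of its 19 genes 9 were named, all of them also in the wider list, so it is not a separate check. In each array 6 were above the floor. The summed signal over the 9 was nearly the same in ES (29971) and EB (30012), most of it from Krt8 and Krt18. Of the 6, Eomes was higher and Krt19 lower, where 3.72% of all 3867 genes were higher and 5.35% lower. The hormone genes and Ascl2, which mark differentiated or committed trophoblast, were not measured above background. No named probe stood for Cdx2, Elf5, Hand1 or Tpbpa, which are not analysed here. Eomes was thus the 1 marker of this list called higher in EB together with Gata3 and Plac1.

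Markers of some other cell types differed along with the members, and those of others did not pass the size rule. Of 10 named pluripotency markers, 10 were above the floor in ES and 5 in EB, 8 were called lower and 0 higher. Their summed signal was 43446 in ES and 5050.1 in EB. Sox2, Zfp42, Dppa3, Klf4 and Fgf4 were under the floor in EB and counted through ES alone, so their differences could only be negative. With signals set to the floor 8 of the 10 markers were lower, with a median of -2.62. The pluripotency factor Nanog had a log2 difference of -2.40, close to the bright Tfap2c probe. All 3 named primitive streak and mesoderm markers were higher, with a median of 2.82. Eomes, 1 of these 3, is also the trophoblast marker called higher. Lhx1, another of them, was under the floor in ES, so its difference could only be positive. With signals set to the floor all 3 were still higher. Of the 5 primitive blood markers above the floor 4 were higher, with a median of 1.36. These 5 counted through EB alone, so their differences could only be positive. With signals set to the floor 3 of them were higher, with a median of 1.16. Of all 3867 named genes above the floor, 3.72% were higher and 5.35% lower. The summed signal over the named genes was 703 in ES and 4959 in EB for the streak list, and 1259 and 3941 for the 7 blood genes, none of which was above the floor in ES. Of 5 primitive and visceral endoderm markers 1 was higher and 1 lower. These were Gata4, counted through EB alone, and Trf, counted through ES alone, so each direction was fixed. With signals set to the floor 0 of the 5 were higher and 0 lower. The part of these cell types in the values of Tfap2c, Gata3 and Plac1 was not tested. Of the neural ectoderm markers 3 were named and 2 above the floor, with 0 called and a median of -0.10. Of the surface ectoderm markers 2 were named, and Tfap2a, the 1 above the floor, was not called. Of 7 named markers of fibroblast feeder cells 2 were above the floor, and they differed in direction: Fbln2, a matrix protein, was 6.04-fold higher and the collagen gene Col1a1 2.58-fold lower. The T lymphocyte markers were under the floor in both arrays for 3 of 3 named genes.

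Within the AP-2 family and its partners Tfap2c stood alone past the size rule. Of 12 genes 8 were named and 5 above the floor. Tfap2a, the family member of surface ectoderm and neural crest, read 288 in ES and lay under the floor in EB, with a difference of -0.42 in these values and -1.5 in the series value table. Tfap2b and Tfap2e were under the floor in both arrays. Of the partners, the coactivator Cited2 gave 0.14 and the inhibitor Kctd1 0.89. Kctd1 passed the size rule after normexp and in the series value table, where its difference was 2.20.

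The GATA family and partners were represented by 4 of 15 genes, and all 4 passed the size rule. Of all named genes above the floor 3.72% were higher and 5.35% lower, but Gata3 was picked with its difference known. Gata3 was joined on the higher side by Gata4, a factor of endoderm and heart, at least 1.97-fold, and by Lmo2, a bridging protein of blood GATA complexes, at least 6.76-fold. Gata4 and Lmo2 were under the floor in ES and counted through EB alone, so their differences could only be positive. With the ES signal of Gata4 set to the floor its difference was 0.98, just under the rule. Trps1, an atypical GATA protein known as a repressor, was 2.17-fold lower, with signals of 583 and 269. Gata1, Gata2, Gata5 and Gata6 had no named probe and are not analysed here.

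Tfap2c also belongs to the primordial germ cell list, in which it was 1 of 4 genes called lower. Of 17 genes 8 were named and 6 above the floor, and 0 were higher, with a median of -1.38. Without Tfap2c 3 of 5 were lower, with a median of -1.36. Of all named genes above the floor 5.35% were called lower. Besides Tfap2c the list genes called lower were Dppa3, Dnd1 and Alpl. Dppa3, already counted among the pluripotency markers, was at least 6.42-fold lower. Dnd1, an RNA-binding protein of germ cells, was at least 2.62-fold lower. Dppa3 and Dnd1 were under the floor in EB and counted through ES alone, so their differences could only be negative. With signals set to the floor 4 genes of the list were still lower, with a median of -1.37. Alpl, the alkaline phosphatase of ES and germ cells, was 2.56-fold lower (signals of 2112 and 826). Kdm1a, a histone demethylase, gave -0.70, and Ifitm1 gave -0.08 by its brighter probe. The dimmer Ifitm1 probe gave -0.65, but it read 231 in ES, barely above the floor, and lay under it in EB. Of the 8 named genes, 6 were above the floor in ES and 4 in EB. Nanos3 and Tdrd1 were under the floor in both arrays.

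Gata3 is a target of BMP signalling in several tissues. Of 27 genes of the BMP list 8 were named and 7 above the floor. Gata3 was the 1 past the size rule, and the median was 0.65. Id3, an inhibitor of helix-loop-helix factors and a BMP target, had signals of 1253 and 2457 and a difference of 0.97, and it passed the rule without normalization, after normexp and in the series value table (1.09 at most). The receptors Bmpr1a and Acvr1 gave 0.57 and 0.60, the shared mediator Smad4 0.65 and the BMP-binding protein Twsg1 0.68. Apart from Gata3, positive differences in this list were thus all under 2-fold, and Tfap2a, at -0.42, was the 1 negative value.

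In the surface ectoderm list, which joins Tfap2c and Gata3, 6 of 18 genes were named and 5 were above the floor. Gata3 was higher, Tfap2c lower, and Tfap2a, Krt8 and Krt18 did not pass the size rule. Grhl2, an epithelial factor, was under the floor in both arrays. Genes known as targets or partners of Gata3 in T lymphocytes, kidney and breast were nearly all at background. Of 8 named, 7 were under the floor in both arrays, among them Il4, Cd3e and Esr1, and Maf read 244 in ES and lay under the floor in EB.

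Plac1 responds to FGF7 in placental cells, and a list around that pathway was examined. Of 12 genes 5 were named and 4 above the floor. Fgf10, a ligand related to FGF7, was 7.14-fold higher at its brighter probe and at least 1.96-fold higher at the other. Fgfbp1, a protein that releases FGFs from the matrix, was at least 1.29-fold lower, with a measured difference of -1.02. Fgf4, a ligand made by ES cells, gave -0.99 but lay under the floor in EB, so it was at least 1.35-fold lower. Fgfr2 gave 0.82 from a signal under the floor in ES. Fgf7 itself was under the floor in both arrays.

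The genes with the nearest differences were picked among those with the same state against the floor in each array. Over 2 samples this likeness is only the closeness of 1 number. Nearest to Tfap2c among 3312 genes were Sh3gl2 (-2.44), Nanog (-2.40) and Rfx2 (-2.55), and 2 genes lay within 0.1 of it. Nearest to Gata3 among 3312 genes were Egln3 (1.42), Cobll1 (1.44) and Tgfbr3 (1.44), with 12 genes within 0.1. Nearest to Plac1 among 294 genes were Cd40 (1.47), Chst2 (1.56) and Plcl2 (1.56), with 5 within 0.1. Of the 4 closest annotated neighbours of each member on chromosome 2 or X, only the noncoding RNAs 4930412O13Rik and 9230102O04Rik beside Gata3 were named, and both were under the floor in both arrays.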

How the data were processed

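Signal intensity per probe is the mean over its beads, exported per the file headers by BeadStudio 2.3.41 with normalization and error model set to none. RMA, limma and BeadStudio 2 appear in the submitters' processing notes with no role stated. The headers go against the word normalised in the sample titles. The deposited detection score was used from the EB array. Other deposited columns gave the number of beads and their spread, read as a standard error because it shrank with bead number (log-log slope of -0.43 in ES and -0.47 in EB). The linear series value table deposited by the authors (median of 16.7 in each array, where the sample files had 173.9 and 173.3) rises with the signal in each array. It served as an alternative, since its making is not stated. Both arrays had 46643 probes, with a median of 38 and 37 beads, and 28.4% of probes were above the floor in each.

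Intensities were quantile normalized with no background subtraction and compared on the log2 scale (Python 3.11.15, numpy 2.4.6). The calculation was tested on simulated data. Gene numbers of at least 10000 were matched to RefSeq GRCm38.p6, for 82.6% of 11857 padded identifiers. The probe with the highest mean log2 signal stood for a gene. Normexp correction used limma 3.58.1 in R 4.3.3, with an offset of 50. The text names all member probes, list genes past the size rule and some others in list order, the 3 genes nearest in difference and chromosome neighbours. Some further list genes were picked for their role or place after their values were seen. The members and lists were chosen with earlier results of these data known. The number of arrays limits the precision.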

Additional observations from a re-analysis of the deposited data

How the results depend on the processing

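No paired analysis was possible because there was 1 sample per group, and no array could be left out. All 4 member probes kept their sign under the 4 other scalings. From the series value table the differences were -2.88 and -1.80 for the bright and dim Tfap2c probes, 2.76 for Gata3 and 3.98 for Plac1. Normexp background correction gave 1.68 for Gata3 and 1.90 for Plac1, and signals set to the floor gave 1.24 for Plac1. Of all named genes 527 were higher and 468 lower in the series value table, and 479 and 463 by a 1.5-fold rule. With signals above the floor required in both arrays 134 were lower. In the trophoblast list 4 were lower in the series value table. The 1.5-fold rule and the floor in both arrays change the counts by construction, since one lowers the limit and the other admits fewer genes. For the series value table and normexp the cause was not tested. The series value table lay below the quantile normalized signal for all 4 member probes in both arrays. In ES it gave 3082 against 3265 for the bright Tfap2c probe and 22.8 against 190.4 for Plac1. A further 35 comparisons with the main values stayed within 1.5 times, or for member probes within the bead-level 95% interval. A looser detection rule, chosen after seeing the data, was among them, and the dimmer genes it admits have little room to pass the size rule. Signals set to the floor were also among them for both Tfap2c probes and Gata3. These lay above the floor in both arrays, so that setting could not change them. Signals near the floor limit the dim Tfap2c probe and the ES values of Gata3 and Plac1.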

Other observations

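One further probe (scl21420.15_12-S) carries the number 21420, the Gene number of Tfap2c, without zero padding, and was not taken for Tfap2c. Its signal was 170.2 in ES and 181 in EB, under the floor in both arrays.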
